A study of Mus musculus with 110 samples.

Results

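Ighd4-1, also called DQ52, is the diversity (D) segment of the mouse immunoglobulin heavy chain locus (Igh) that lies nearest to the joining (JH) segments. Its use in V(D)J recombination was measured by LAM-HTGTS, a linear-amplification sequencing assay that reads outward from a fixed bait, here the JH4 segment, and records the prey position to which the bait was joined. Each line of the deposited files is 1 junction read. Junctions on chromosome 12 within 100 bp of file position 114673089 were taken as Ighd4-1 junctions. They numbered 221500 of the 3602400 junctions in 98 full libraries, or 6.15%, and 3177932 junctions lay at any D segment.

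The study compared pro-B cell lines transformed by v-Abl. They are RAG2 deficient, carry the Emu-Bcl2 transgene, received RAG2 by nucleofection and were held in 3 µM of the Abl kinase inhibitor STI-571 for 4 days. All line groups share these features. The parental line is wild type at the genes tested, and 2 further control lines carry the Ostir1 knock in alone or the CTCF-mAID-GFP tag alone. The CTCFdegron line, the Rad21degron line and an IGCR1deleted Rad21degron line carry a degron on CTCF or on the cohesin subunit Rad21. Each line was studied untreated and with the auxin IAA at 500 µM, given for 6 h before STI-571 and then together with it. The parental, Ostir1-only, tag-only and IGCR1deleted lines have 4 replicates per treatment, the CTCFdegron line 6 and the Rad21degron line 3. A further group holds 6 libraries of wild-type bone marrow pro-B cells of 129SV mice, sorted as B220+CD43+IgM- cells in 5 of the 6 labels. STI-571 appears in the labels of bone marrow replicates 4 to 6. The labels do not say whether replicates came from separate cultures, clones or animals, so each p-value measures the spread between these samples only. The files hold junctions alone, so the loss of CTCF or Rad21 protein could not be checked.

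D segments are flanked on both sides by recombination signal sequences (RSS), each made of a heptamer, a spacer and a nonamer, which the RAG endonuclease binds and cuts. In the first step of Igh assembly a D joins a JH segment, and a VH segment is joined to that DJ unit later. RAG bound at the JH region is thought to meet distant segments as cohesin extrudes the chromatin past it, while CTCF bound at sites such as IGCR1, an insulator between VH and D, impedes that passage. Ighd4-1 sits next to the JH segments and so is close to the RAG-bound region without any looping. Its joining has long been noted early in B cell development and in fetal repertoires.

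In the mm9 genome Ighd4-1 is an 11-base segment on the minus strand at chr12:114668739-114668749, annotated as a D gene (Gm16877), and it lies wholly within that D exon. In the coordinates of the files it starts 1962 bases from the bait's JH4 end, against 16485 bases for Ighd3-2, its nearest neighbour in the D array, and 63417 bases for Ighd1-1 at the far end of the main array. The 3 D units and the start of JH4 are shown because the joins described here are cut at these borders. They are given in the coding direction from mm9 (chr12:114668711-114668777, chr12:114686397-114686468, chr12:114720353-114720431 and chr12:114666725-114666785, all on the minus strand), with heptamers and nonamers in capitals for the D units and the heptamer alone in capitals for JH4.
Ighd4-1: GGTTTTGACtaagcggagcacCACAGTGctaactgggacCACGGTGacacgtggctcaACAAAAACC
Ighd3-2: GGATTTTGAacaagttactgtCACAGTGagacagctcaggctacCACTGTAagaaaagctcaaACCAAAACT
Ighd1-1: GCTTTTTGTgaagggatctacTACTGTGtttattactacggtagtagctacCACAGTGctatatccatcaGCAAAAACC
JH4: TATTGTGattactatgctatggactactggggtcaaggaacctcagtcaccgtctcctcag
The JH-side heptamer of Ighd4-1, CACGGTG, occurred in 1 of the 21 D genes annotated in mm9, Ighd4-1 itself, whereas CACAGTG was the most common form with 8 of 21. The JH-side nonamer ACAAAAACC was shared by 7 of 21, and the VH-side heptamer CACAGTG by 3 of 21.

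Sequencing depth differed widely. Replicates held 1263 to 231023 junctions, with the lowest numbers in the IAA-treated Rad21degron (1263 to 2492) and IGCR1deleted (1608 to 2668) lines. The exact 95% binomial interval of a replicate's Ighd4-1 share was 0.177 to 5.43 percentage points wide, the widest in the IAA-treated Rad21degron line. These intervals take each read as an independent molecule and leave out the spread between replicates. They are too narrow where 1 molecule gave several reads. In the a library of untreated parental replicate 4, 5318 Ighd4-1 reads held 2742 distinct junctions. Read names gave 11 sequencing runs. In 42 replicates of the lines the junctions were deposited as a pair of libraries, a and b, which the labels do not define. The members of a pair shared run and index in 42 of 42 replicates and carried a different stretch at the same point of the bait, in capitals below, so they were averaged and counted as 1 replicate.
a libraries: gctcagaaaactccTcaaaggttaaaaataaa
b libraries: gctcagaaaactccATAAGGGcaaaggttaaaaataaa
bone marrow libraries: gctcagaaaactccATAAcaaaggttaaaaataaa
The IGCR1deleted line has b libraries only. The Ighd4-1 share was higher in the b library of 27 of the 42 replicates, with a mean difference of b minus a of -0.449 percentage points. The differences ran from -15.1 to 1.08 points, and b was lower in all 3 replicates of the IAA-treated Rad21degron line, at a mean of 52.8% in b against 60.5% in a. An exact sign-flip test over replicates gave adjusted p-values from 0.313 to 1 over the 10 groups, so none passed; the lowest unadjusted p was 0.0312, in the untreated CTCFdegron line. The smallest p this test allows is 0.25, 0.125 or 0.0312 with 3, 4 or 6 replicates. After adjustment over the 10 groups none of these could fall under 0.05, so the test cannot decide whether a and b differ. 1 run stood apart in junction structure, as given with the structures below: run 11, with parental replicates 3 and 4 and Ostir1-only replicates 3 and 4 of both treatments.

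Ighd4-1 junctions were nearly all in the plus orientation, the one a deletional DJ join gives: the bait runs into the JH-side coding end of the D. Only 219 of the 221500 were in the minus orientation. Among the 221281 plus junctions, 44.5% entered at the JH-side end of the D or at most 5 bases outside it, 51.1% had lost 1 to 10 D bases, and 4.04% had lost the whole D and entered within 20 bases beyond it. The commonest joins are printed from the heptamer on the VH side, with the retained D bases in capitals followed by JH4.
join 1: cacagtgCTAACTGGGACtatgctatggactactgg
join 2: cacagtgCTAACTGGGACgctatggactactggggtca
join 3: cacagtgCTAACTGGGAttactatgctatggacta
Join 1 kept the whole D and lost 3 bases of JH4, with 2 bases that align to both segments. It was found in all 98 libraries and made up 15006 junctions, or 6.78% of those at Ighd4-1. Join 2 kept the whole D, lost 8 bases of JH4 and made up 7344 junctions (3.32%). Join 3 lost 1 D base, again with 2 shared bases, and made up 3820 junctions (1.73%). Run 11 contributed 6749 of the junctions of join 1. The share of join 1 among a replicate's Ighd4-1 junctions was 10.3% to 15.7% in the 8 replicates of run 11 and 0.650% to 8.02% in the other 48.

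The Ighd4-1 share of all junctions spanned more than an order of magnitude over the 13 groups. It was lowest in bone marrow pro-B cells at 3.76% ± 0.455 (SD, n = 6). It was near 5% in the control lines: 4.98% ± 0.222 untreated and 5.15% ± 0.723 with IAA in the tag-only line, 5.53% ± 0.669 and 5.62% ± 0.741 in the Ostir1-only line, and 5.65% ± 0.944 and 5.64% ± 1.11 in the parental line (n = 4 each). The CTCFdegron line reached 8.02% ± 1.63 untreated and 12.4% ± 1.55 with IAA (n = 6 each). The untreated IGCR1deleted line had 14.1% ± 2.17 (n = 4) and the untreated Rad21degron line 14.5% ± 2.04 (n = 3). With IAA these lines reached 54.0% ± 0.937 and 56.7% ± 6.04. Between neighbours in this order, replicate ranges were separate only from bone marrow to the untreated tag-only line and from the untreated Rad21degron line to the IAA-treated IGCR1deleted line; the other neighbours overlapped.

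**Figure D1:**
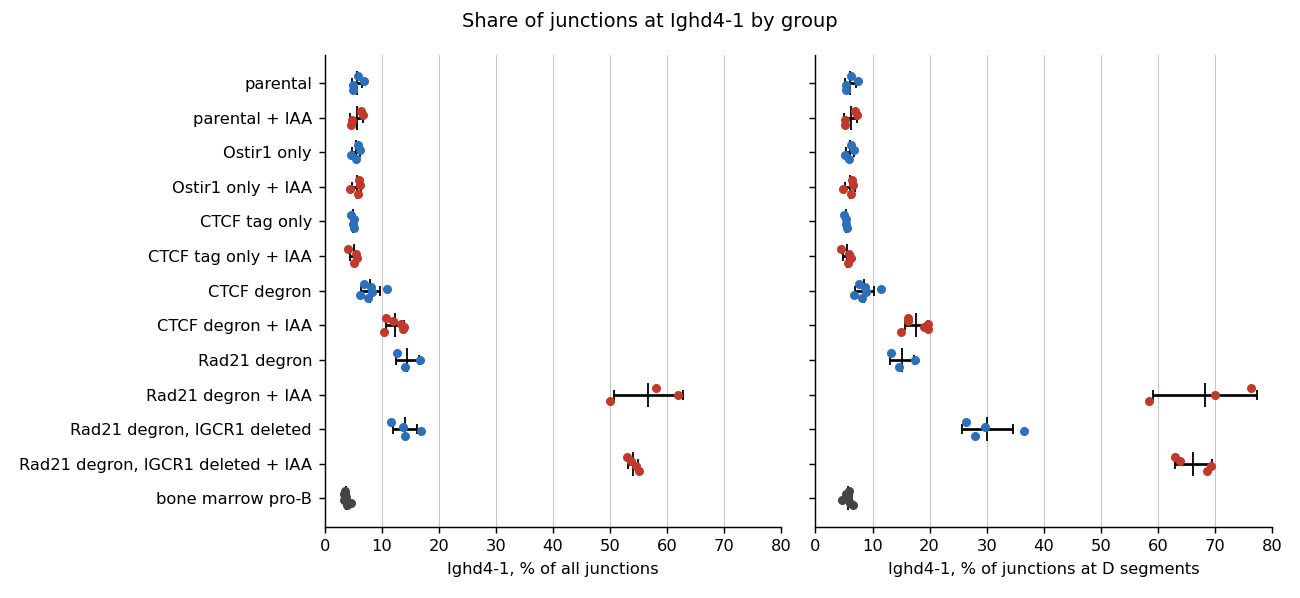
Share of junctions at Ighd4-1 in percent of all junctions (left) and of junctions at D segments (right), 1 point per replicate; black bars are the mean and SD, blue is untreated, red is with IAA, grey is bone marrow. Every IAA-treated replicate of both Rad21degron lines lies at or above 50.0% on the left, while the control lines lie between 4.12% and 6.89%.

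Loss of Rad21 was addressed by adding IAA to the Rad21degron line. Its replicates held 12.7%, 16.7% and 14.1% of junctions at Ighd4-1 untreated and 58.1%, 61.9% and 50.0% with IAA. The ranges did not overlap, and the difference was 42.2 percentage points. With 3 against 3 replicates the two-sided exact permutation test cannot go below 0.1, the value found (0.188 after Benjamini-Hochberg adjustment over 15 comparisons). In limma's fit over 19 segments Ighd4-1 rose by 1.95 on the log2 scale (SE 0.27, adjusted p 3.28e-06). In that comparison limma called 12 of 19 segments (63.2%), and Ighd4-1 was the 1 segment called higher (5.26%) against 11 called lower. The 12 calls became 6 or 7 without 1 of the untreated replicates, 4 with median-of-ratios scaling and 95 without the filter on junctions. The median over all 19 segments was -1.20. Of the 12 D segments tested 4 were lower, among them Ighd1-1 at -3.23 (SE 0.46, adjusted p 3.28e-06). Ighd3-2, the nearest D, was at -0.61 (SE 0.51, adjusted p 0.266) and did not pass.

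A share is a part of a whole, and the totals differed between treatments. The untreated Rad21degron replicates held on average 37815 junctions and the IAA-treated ones 1855, a 20.4-fold lower number, while the mean number of Ighd4-1 junctions went from 5327 to 1024, 5.20-fold lower. More joining at Ighd4-1 and less joining elsewhere cannot be told apart from these counts, since nothing in the files ties a library to a number of cells. Set against Ighd1-1 within each replicate, the mean log2 ratio of Ighd4-1 to Ighd1-1 was -1.66 untreated and 3.59 with IAA. Thus Ighd4-1 passed from the second to the first rank among the 26 D segments of the list. Its mean share over replicates, with a and b summed within each, was 56.5% with IAA, against 5.68% for the next. Each run held 1 replicate of each treatment, and the difference was 45.5 percentage points in run 2, 45.2 in run 6 and 36.0 in run 8.

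The same treatment was given to the line that also lacks IGCR1. Ighd4-1 shares were 11.6%, 13.7%, 16.9% and 14.1% untreated and 52.9%, 53.6%, 54.5% and 55.0% with IAA. All treated replicates lay above all untreated ones, with a difference of 39.9 percentage points (exact permutation p = 0.0286, the smallest that 4 against 4 allows; adjusted p = 0.0612, above the threshold of 0.05). In limma Ighd4-1 rose by 1.97 (SE 0.10, adjusted p 4.96e-09), in a comparison that called 9 of 18 segments (50%), 3 higher (16.7%) and 6 lower. Of the 12 D segments tested 3 were higher, Ighd4-1 and Ighd3-2 (0.93, SE 0.22, adjusted p 0.00355) among them. Ighd1-1 was the 1 D segment called lower, at -3.16 (SE 0.45, adjusted p 8.08e-05). Mean junctions per replicate went from 12157 to 2109, 5.77-fold lower, and Ighd4-1 junctions from 1652 to 1136, 1.45-fold lower. Within runs the difference was 40.7 percentage points in run 3 (3 against 3) and 37.7 in run 5 (1 against 1).

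The deletion of IGCR1 gave different values for Ighd4-1 according to what its junctions were counted against. Of all junctions, the untreated IGCR1deleted and Rad21degron lines differed by -0.411 percentage points (exact permutation p = 0.8; adjusted p = 0.918). limma gave 0.02 (SE 0.18, 95% interval -0.39 to 0.43, adjusted p 0.896) in a comparison that called 17 of 20 segments (85%). Of the 12 D segments tested 10 were lower, including Ighd1-1 at -2.16 (SE 0.24, adjusted p 1.82e-05) and Ighd3-2 at -0.55 (SE 0.15, adjusted p 0.00616), so Ighd4-1 ranked first among D segments with a value near 0. Counted against D junctions alone, the Ighd4-1 share was 26.3%, 29.7%, 36.5% and 28.0% in the untreated IGCR1deleted line and 13.2%, 17.4% and 14.7% in the untreated Rad21degron line. These ranges did not overlap (difference 15.0 percentage points, exact permutation p = 0.0286, the smallest possible; adjusted p = 0.0612). VH segments took 50.7% of junctions in the former and 1.90% in the latter. With IAA the lines stood at 66.2% ± 3.27 and 68.2% ± 9.08 of D junctions, and at 54.0% and 56.7% of all junctions (exact permutation p = 0.686 and 0.371). The IGCR1deleted line has b libraries only, and against the b libraries of the Rad21degron line, at 52.8% of all junctions, the difference turned from -2.66 to 1.18 percentage points. The lines were sequenced in different runs, so line and run cannot be told apart.

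The effect of IAA itself was compared between lines as log2 ratios of same-numbered replicates. For the share of all junctions it was 1.95 ± 0.203 in the IGCR1deleted line and 1.97 ± 0.197 in the Rad21degron line, a difference of -0.02 (exact permutation of line labels, p = 0.914). For the share of D junctions the difference was -1.03 (p = 0.0286, adjusted p = 0.0286 over 5 pairs of lines). The Rad21degron effect exceeded that of the parental line, which was -0.01 ± 0.0970, by 1.98 (p = 0.0286, adjusted p = 0.0357). Without any 1 pair the adjusted p was 0.0833 to 0.125, where the smallest possible p is higher. In the parental and both Rad21degron lines the replicate numbers did not meet the pairing criterion given below. The spreads and p-values of these ratios depend on that matching of numbers.

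**Figure D2:**
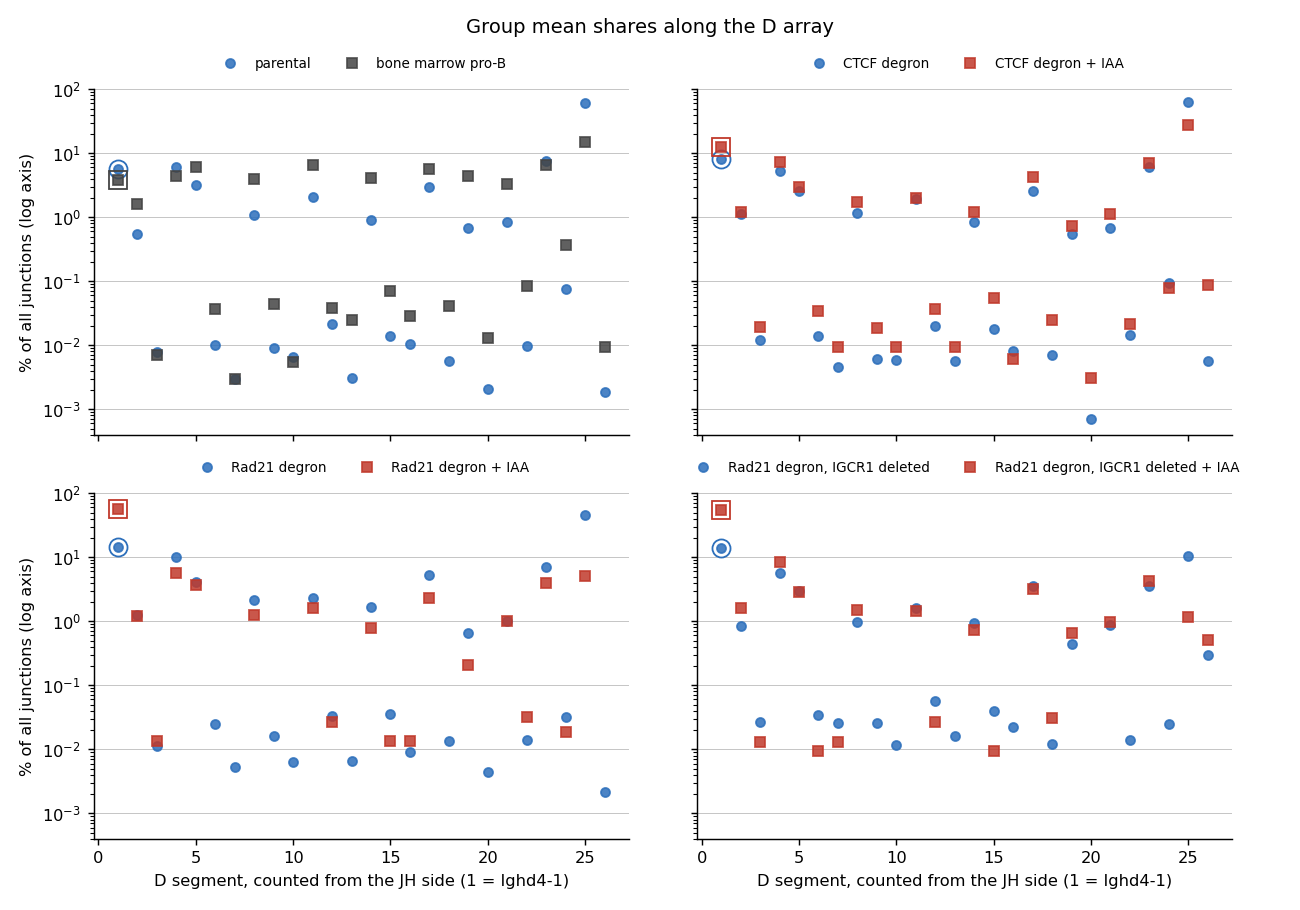
Mean share of each D segment in percent of all junctions (log axis) against its order from the JH side, for 4 pairs of groups; ringed symbols mark Ighd4-1, and segments at 0 are not drawn. In the lower panels Ighd4-1 lies at 56.5% and 54.0% with IAA while Ighd1-1, segment 25, lies at 5.02% and 1.16%.

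Untreated Rad21degron cells had a higher Ighd4-1 share than parental cells. All 3 of their replicates (12.7% to 16.7%) lay above all 4 untreated parental ones, which were at 5.88%, 6.89%, 4.95% and 4.89%. The difference was 8.84 percentage points (exact permutation p = 0.0286, the smallest possible; adjusted p = 0.0612). In limma the value was 1.43 higher (SE 0.12, adjusted p 5.09e-06), in a comparison that called 19 of 26 segments (73.1%). Of the 16 D segments tested 11 were higher and 2 lower, with Ighd3-2 up by 1.40 (SE 0.16, adjusted p 1.59e-05) and Ighd1-1 down at -0.40 (SE 0.05, adjusted p 3.28e-05). The runs of the lines did not overlap, so line and run cannot be told apart here either.

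Loss of CTCF was addressed in the CTCFdegron line, whose 12 replicates all came from 1 run. The Ighd4-1 share ran from 6.22% to 10.9% untreated (median 7.87%) and from 10.3% to 13.96% with IAA (median 12.7%). A single untreated replicate, at 10.9%, lay within the treated range. The difference was 4.34 percentage points (exact permutation p = 0.00649, adjusted p = 0.0244). Of D junctions alone the share ran from 6.68% to 11.4% untreated and from 15.0% to 19.7% with IAA, with no overlap (difference 9.08 percentage points, exact permutation p = 0.00216, adjusted p = 0.0162). In a sign-flip test on same-numbered pairs both differences had an adjusted p of 0.0781 and did not pass. The replicate numbers of this line did not meet the pairing criterion given below. In limma Ighd4-1 rose by 0.65 on the scale of library totals (SE 0.16, adjusted p 0.000189), but fell by 1.70 (adjusted p 5.93e-08) with median-of-ratios scaling; the median over all 70 segments on library totals was 2.76. limma called 62 of 70 segments (88.6%), 61 of them higher (87.1%), and Ighd4-1 ranked 58 of 70. Among 15 D segments 8 were higher and 1 lower, Ighd1-1 at -1.18 (SE 0.13, adjusted p 2.63e-12), and Ighd4-1 ranked 5. Ighd3-2 was at 0.05 (SE 0.23, adjusted p 0.842).

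Junction numbers were set beside these shares. Mean junctions per replicate of the CTCFdegron line were 43939 untreated and 29865 with IAA, while Ighd4-1 junctions were 3444 and 3712. The VH share was 4.07% untreated and 27.5% with IAA. Ighd1-1 held 62.3% and 27.7% of junctions, and the mean log2 ratio of Ighd4-1 to Ighd1-1 went from -2.97 to -1.16. The IAA effect on the Ighd4-1 share, a mean log2 ratio of 0.64 ± 0.295, was larger than that of each control line. The differences were 0.65 against parental, 0.62 against Ostir1-only and 0.60 against tag-only cells, each with an exact permutation p of 0.00952 and an adjusted p of 0.0159.

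IAA-treated CTCFdegron cells were also set against other cells. They exceeded IAA-treated parental cells by 6.72 percentage points and bone marrow pro-B cells by 8.60, with no overlap in either case (exact permutation p = 0.00476 and 0.00216, adjusted p = 0.0238 for both). Untreated CTCFdegron cells exceeded untreated parental cells by 2.36 points, with overlapping ranges (exact permutation p = 0.0286, adjusted p = 0.0612). limma called Ighd4-1 0.57 higher there (SE 0.19, adjusted p 0.00462) among 21 of 34 segments called (61.8%), but with median-of-ratios scaling it was 0.39 (adjusted p 0.0587) and did not pass. None of these contrasts shared a run, so line and run cannot be told apart.

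In the control lines IAA moved the Ighd4-1 share by less than the spread between replicates of all runs. The difference was -0.0101 percentage points in the parental line (exact permutation p = 1), 0.0834 in the Ostir1-only line (p = 0.857) and 0.177 in the tag-only line (p = 0.629). limma gave 0.00 (95% interval -0.30 to 0.30), 0.02 (-0.34 to 0.38) and 0.04 (-0.27 to 0.35), with adjusted p-values of 0.999, 0.961 and 0.9996. The parental comparison called 9 of 32 segments (28.1%), 8 of them D segments that were higher (25%) and 1 lower (3.12%). In the Ostir1-only line 1 of 23 segments was called, higher (4.35%), and 13 with the replicate number as a block. Untreated Ostir1-only and tag-only cells differed from parental cells by 0.02 (SE 0.15, adjusted p 0.925) and -0.08 (SE 0.13, adjusted p 0.600). The latter comparison called 26 of 51 segments (51%), 21 higher (41.2%) and 5 lower (9.8%). The parental and Ostir1-only shares varied with the run. Untreated parental means were 4.92% in run 11 and 6.39% in run 7, and IAA-treated ones 4.68% in run 11 and 6.60% in run 9 (n = 2 each). Run 11 was the only run with both parental treatments. There both treated replicates (4.66% and 4.71%) lay below both untreated ones (4.89% and 4.95%), a difference of -0.235 points that was not tested. Ostir1-only means were 5.05% untreated and 5.17% with IAA in run 11, and 6.01% and 6.06% in run 9 (n = 2 each). The 8 replicates of run 11 had a median of 4.80% (4.52% to 5.81%). The other 16 control replicates, which include the tag-only line, had 5.77% (4.12% to 6.89%).

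Bone marrow pro-B cells gave the lowest level. Their 6 replicates ran from 3.34% to 4.56% (median 3.69%), all below the 4 untreated parental replicates, and the difference was -1.89 percentage points (exact permutation p = 0.00476, adjusted p = 0.0238). In limma Ighd4-1 was -0.46 (SE 0.10, adjusted p 2.57e-05), in a comparison that called 141 of 143 segments (98.6%), 137 higher (95.8%) and 4 lower (2.8%), with a median of 5.34. Among the 20 D segments tested 15 were higher and 4 lower. Ighd4-1 ranked 10 of 26 D segments by share in bone marrow. Of D junctions alone the share was 5.70% ± 0.614 against 6.10% ± 0.976 in parental cells, and this difference of -0.399 percentage points did not pass (exact permutation p = 0.457, adjusted p = 0.686). With identical junctions counted once it was -1.59 points and passed (exact permutation p = 0.00476, adjusted p = 0.0179). VH segments took 30.8% of bone marrow junctions and 4.61% of parental ones. The groups shared no run. Most junctions of bone marrow replicates 1 to 3 carried a duplicate mark, which no library of the lines had, and marked junctions were kept. The mean Ighd4-1 share was 3.57% in these replicates and 3.96% in bone marrow replicates 4 to 6, which had no marks.

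Minus-orientation junctions were rare in every group. Replicates had 0 to 15 of them. In the 10 replicates with 0, counting error (3 counts) would allow a share of up to 0.0621% to 0.385% of Ighd4-1 junctions. That limit takes reads as independent. Of the 219, 30 lay at the JH-side signal end, as a hybrid joint would give, 81 lay up to 30 bases inside the JH-side RSS and 69 ran from within the D. Of these 69, 2 started exactly at the VH-side end of the D, where an untrimmed inversional join would lie. With the JH-side end as 0 and the VH-side end as 10, base positions 6, 7, 8 and 9 held 12, 8, 6 and 12. A trimmed inversional join could lie there. Position 0 held 22. The minus fraction of Ighd4-1 junctions was 0.455% ± 0.726 in IAA-treated and 0.0420% ± 0.0233 in untreated Rad21degron cells (exact permutation p = 0.6), and 1 treated replicate held 14 of the 15 minus junctions. In the CTCFdegron line it was 0.0302% ± 0.0194 with IAA and 0.121% ± 0.0918 untreated (exact permutation p = 0.0541, adjusted p = 0.406). None of the 15 comparisons passed after adjustment, and 1 had an unadjusted p under 0.05 (IAA-treated CTCFdegron minus parental cells, -0.0817 points, exact permutation p = 0.0143).

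The structure of the plus joins differed between cells. In untreated parental cells 47.0% ± 2.21 of Ighd4-1 joins kept an untrimmed D end, against 35.7% ± 2.0 in bone marrow (difference -11.3 percentage points, no overlap, exact permutation p = 0.00476, adjusted p = 0.0357). Without any 1 replicate of either group the adjusted p was 0.0595 to 0.0714. Untrimmed ends also differed by run in the control lines, at 46.5% to 49.96% in the 8 replicates of run 11 and 42.6% to 46.2% in the other 16. The parental means were 45.1% in run 7 and 48.8% in run 11 (n = 2 each), and the highest bone marrow value was 37.4%. Joins that had lost the whole D made up 12.7% ± 2.17 in bone marrow and 3.49% ± 1.64 in parental cells, and the mean JH4 loss was 6.05 bases and 4.32 bases. IAA-treated CTCFdegron cells kept 43.0% ± 1.98 untrimmed ends, 7.33 points above bone marrow (exact permutation p = 0.00216, adjusted p = 0.0325). In the IGCR1deleted line untrimmed ends were 38.5% ± 1.35 without and 45.3% ± 3.38 with IAA, without overlap (exact permutation p = 0.0286, adjusted p = 0.0857). The Rad21degron line had 42.8% ± 0.810 and 47.1% ± 3.51 (exact permutation p = 0.2), and within run 2 the difference was -0.636 points where runs 6 and 8 had 6.26 and 7.30.

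**Figure D3:**
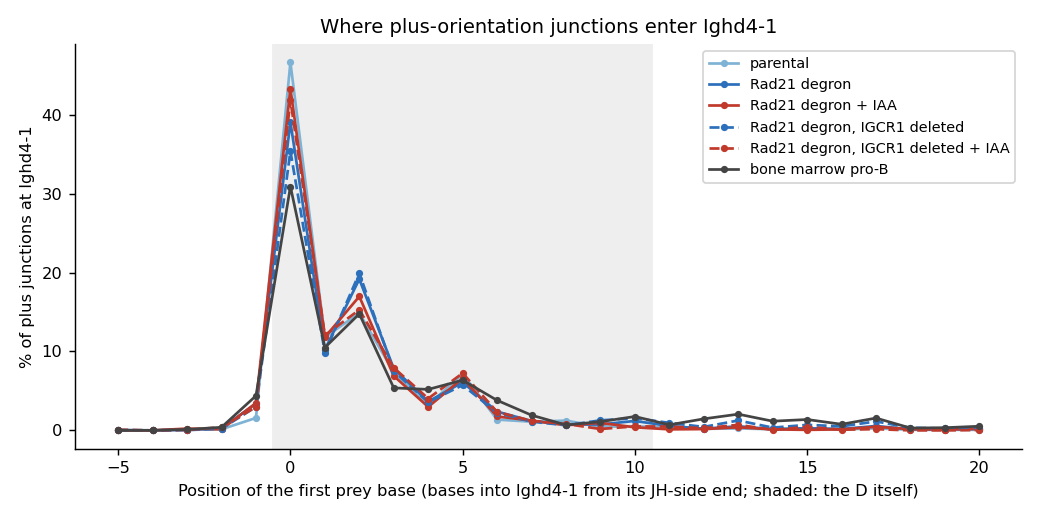
Position at which plus junctions entered Ighd4-1, as percent of the group's plus junctions over pooled replicates, against the base position counted from the JH-side end of the D (0 is the untrimmed end, negative values lie outside the D). All 6 groups peak at position 0, and bone marrow has the lowest peak.

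Joins without added bases, meaning no untemplated or unassigned base between D and JH4, split the control lines by run. At Ighd4-1 they made up 44.5% to 74.8% of joins in the 8 replicates of run 11 and 19.1% to 33.3% in the other 16 control replicates. The other D segments showed the same division, with 36.5% to 75.9% in run 11 and 19.2% to 32.3% in the other control replicates. Bone marrow had 13.8% ± 2.21, against 38.7% ± 17.0 in untreated parental cells (exact permutation p = 0.00476, adjusted p = 0.0357, and 0.0595 to 0.0893 without any 1 replicate). The parental values were 25.04% and 23.2% in run 7 and 51.4% and 55.3% in run 11, and the highest bone marrow value was 15.5%. Without the run 11 replicates the parental mean was 24.1% (n = 2), still above every bone marrow replicate. IAA-treated CTCFdegron cells were 9.67 points above bone marrow (exact permutation p = 0.00216, adjusted p = 0.0325).

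In both Rad21degron lines the IAA-treated replicates had more joins without added bases at Ighd4-1 than any untreated one, and neither comparison passed adjustment. They were 16.6%, 17.2% and 18.6% untreated and 23.2%, 22.0% and 27.2% with IAA in the Rad21degron line (exact permutation p = 0.1, the smallest possible). In the IGCR1deleted line the means were 18.3% ± 0.840 and 30.1% ± 1.96 (exact permutation p = 0.0286, adjusted p = 0.107). At other D segments of the same replicates the shares were 17.1% and 36.0% in the Rad21degron line, and 16.5% and 33.6% in the IGCR1deleted line. Ighd4-1 lay below the other D segments in all 7 IAA-treated replicates of these lines, by a mean of 11.9 and 3.45 points. The differences ran from -16.9 to -2.47 points in the Rad21degron line and from -8.43 to -0.496 in the IGCR1deleted line. The other D segments held few junctions in these replicates, which limits the precision of their values. In the a library of treated Rad21degron replicate 1, 551 of the 669 junctions at D segments lay at Ighd4-1. Over all 56 replicates it lay above them in 31.

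Ighd4-1 joins were also set beside other D joins of the same replicate, as a description with no test. Joins in which D and JH4 alignments overlapped, as short shared sequence at the join gives, had a lower share at Ighd4-1 in 54 of 56 replicates, by a mean of 4.87 percentage points. The mean JH4 loss was larger at Ighd4-1 than at other D segments in all 6 bone marrow replicates (by 0.849 bases), all 3 IAA-treated Rad21degron replicates (by 0.646 bases) and all 4 IAA-treated IGCR1deleted replicates (by 0.690 bases). In the untreated replicates of both Rad21degron lines it was smaller in 7 of 7.

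**Figure D4:**
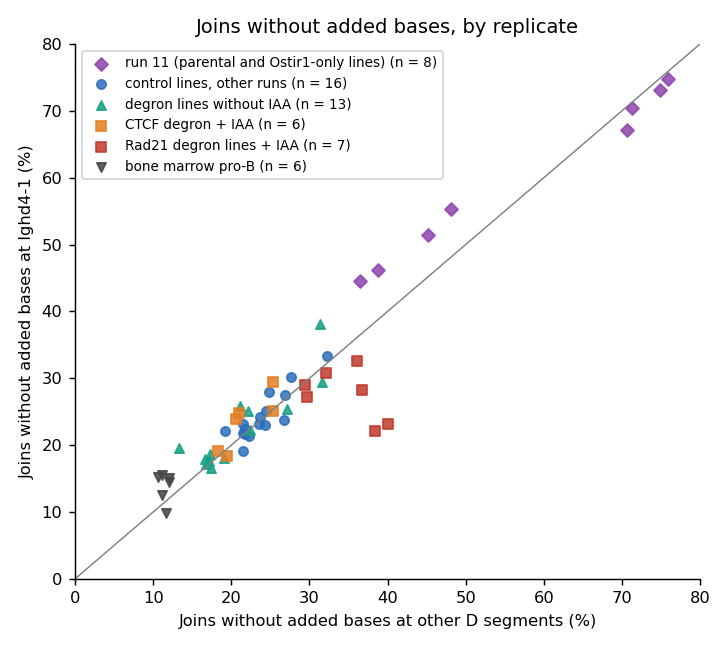
Joins without added bases at Ighd4-1 (vertical axis, percent) against those at other D segments (horizontal axis, percent), 1 point per replicate; the line marks equal values. The 8 replicates of run 11 lie at 44.5% or above, and the IAA-treated Rad21degron lines lie below the line.

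A VH junction with Ighd4-1 bases between VH and JH4 is what a VH joined to a pre-formed DJ4-1 unit leaves. At least 8 consecutive bases of Ighd4-1 were sought in the gap between bait and prey of VH junctions. The same search in junctions at other D segments, which should hold none, found 0.0650% to 0.265% in the groups compared. A match needs a gap of at least 8 bases, and gap lengths were not matched between VH and D junctions. The rate at other D segments therefore does not give the rate of chance matches in VH gaps. The share of VH junctions with such bases was 1.62% ± 0.276 in bone marrow, 2.67% ± 0.389 in untreated parental cells, 2.97% ± 0.887 and 3.56% ± 0.714 in the CTCFdegron line without and with IAA, 4.72% ± 1.16 in untreated Rad21degron cells, and 7.91% ± 1.08 and 10.0% ± 1.40 in the IGCR1deleted line without and with IAA. IAA-treated Rad21degron cells had only 2 VH junctions in all and were not compared.

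Bone marrow lay below parental cells by 1.05 percentage points (exact permutation p = 0.00476, adjusted p = 0.0310 over 13 comparisons, and 0.0516 to 0.0774 without any 1 replicate) and below IAA-treated CTCFdegron cells by 1.93 (exact permutation p = 0.00216, adjusted p = 0.0281). When all 11 bases were required, these differences were -0.0474 and 0.243 points, and neither passed. No other comparison passed. The untreated IGCR1deleted line exceeded the untreated Rad21degron line by 3.18 points without overlap (exact permutation p = 0.0286, adjusted p = 0.0929), and the latter exceeded parental cells by 2.06 (same p-values). This measure also differed by run in the Ostir1-only line: its replicates of run 11 had 0.941% to 1.41%, those of run 9 had 1.996% to 3.54%. Untreated parental cells had means of 2.59% in run 11 and 2.74% in run 7. The search can find only joins that retained 8 D bases, and Ighd4-1 joins had lost a mean of 4.12 D bases in bone marrow and 2.15 in parental cells; the part of this loss in the result was not tested.

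**Figure D5:**
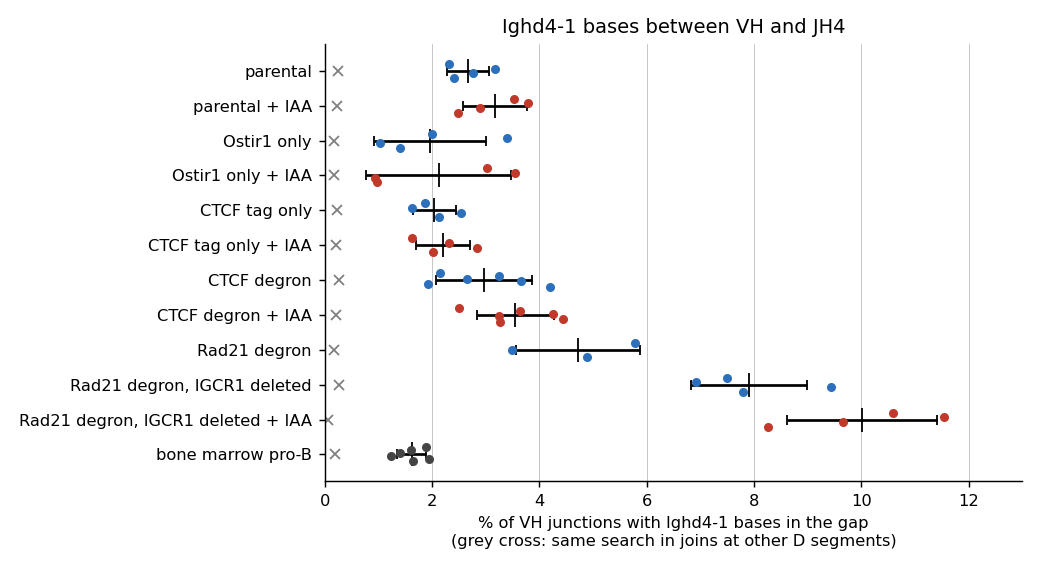
Percent of VH junctions whose gap holds at least 8 consecutive bases of Ighd4-1, 1 point per replicate, with mean and SD bars and the group mean of the same search in junctions at other D segments as grey crosses. The untreated IGCR1deleted line lies at 6.91% to 9.44%, and bone marrow at 1.23% to 1.95%.

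The segments whose shares moved most like Ighd4-1 over the 13 groups were Ighd3-2 (Pearson r = 0.59 of log2 mean shares), the D at position 114708573 (0.41) and the D at position 114690286 (0.18), out of 97 segments compared. The groups share lines and depth, so this is a description with no test. The mean share of Ighd3-2 was 0.539% in untreated parental cells, 1.26% and 1.23% in Rad21degron cells without and with IAA, and 1.59% in bone marrow, where Ighd4-1 was lowest.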

How the data were processed

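LAM-HTGTS junctions were measured in 98 full libraries of 13 groups. Per the labels, the authors aligned reads to a hybrid of mm9 and another Igh sequence; per the submitters' processing notes Bowtie2 was used, and its version is not given in the sources used here. The deposited files list 1 junction per line with its position, orientation and alignment bounds, and hold no counts. Off-target lists (12 libraries) were not used. Duplicate marks were not used. They were carried by 67957 of 79561, 47910 of 57972 and 78541 of 89909 junctions of bone marrow replicates 1, 2 and 3, and by no junction of any other full library. Segments (28 D and 140 VH) were junction peaks matched to mm9 with blastn 2.17.0. A junction was assigned within 100 bp. For 4 libraries the title names IAA and the treatment label does not; they were grouped by title.

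Replicate shares, the mean of a and b libraries, were compared with two-sided exact permutation tests and Benjamini-Hochberg adjustment within each measure; the search for D bases in gaps used a and b together. limma 3.58.1 (voom, R 4.3.3) was fitted to junctions per segment on library totals, pseudocount 0.5, at least 10 junctions per replicate on average, adjusted p under 0.05. On simulated data it called 4 of 4 changed segments for the Rad21degron (15 segments) and 17 of 17 for the CTCFdegron comparison (72 segments). In either, 0 unchanged segments were called. The changed segments had a mean log2 size of 2.01 and 2.00. Recovery at a mean size of 0.65, the value of Ighd4-1 in the CTCFdegron comparison, was not tested. Data in which most segments changed were not tested either. Replicate numbers were taken to pair samples where every pair of deviations over segments correlated above 0.1, which held in the Ostir1-only (r 0.66 to 0.87) and tag-only (0.50 to 0.85) lines and not in the others (parental 0.05 to 0.29). With the replicate number as a block the called segments were 13 instead of 1 and 13 instead of 0 there, and Ighd4-1 was not called in these lines with or without the block.

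Named segments were Ighd4-1, the D list, Ighd1-1 and the 3 segments with the most similar shares; Ighd3-2 is also the nearest D. The member, the lists and the tests were chosen with earlier results of these data known. Alternatives tried are windows, denominators, scalings, filters, duplicates, libraries a or b, runs, replicate blocks and leaving out each replicate.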

Additional observations from a re-analysis of the deposited data

Results flagged for a closer look

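The response to IAA was compared between lines with log2 ratios of treated over untreated Ighd4-1 shares of same-numbered replicates and permuted line labels. The replicate numbers met the pairing criterion given above only in the Ostir1-only and tag-only lines. The CTCFdegron effect exceeded that of the parental line by 0.65 (higher in 6 of 6 CTCFdegron pairs, exact permutation p = 0.00952, adjusted p = 0.0159), that of the Ostir1-only line by 0.62 and that of the tag-only line by 0.60 (the same p-values). The Rad21degron effect exceeded the parental one by 1.98 (exact permutation p = 0.0286, adjusted p = 0.0357), with 3 of 3 pairs above all 4 parental pairs. That call was lost without any 1 pair (adjusted p 0.0833 to 0.125) and when IAA labels were permuted within lines (1.97, adjusted p = 0.0625).

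With the share of D junctions in place of the share of all junctions, the effect in the IGCR1deleted line was smaller than that in the Rad21degron line by 1.03 on the log2 scale, a difference of -1.03 (exact permutation p = 0.0286, adjusted p = 0.0286). The untreated levels of that share were 30.1% and 15.1%, the treated levels 66.2% and 68.2%. In 66 combinations of group and measure, with 4 or 6 replicates each, no replicate stood apart by Dixon's criterion, where chance alone would mark about 1 in 20.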

How the results depend on the processing

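Of 1499 recomputed values, 1434 kept their side of the threshold or, within single runs, moved by less than the spread between replicates. Direction was checked only for results that had passed the threshold. Results that had not passed could change direction and still be counted among the 1434. The IAA difference in the parental share kept its direction in 12 of 19 settings. The limma difference of the untreated IGCR1deleted from the Rad21degron line kept it in 5 of 12. Among results that had passed, 1 value reversed: with median-of-ratios scaling the limma change of Ighd4-1 in CTCFdegron cells was -1.70. With that scaling the limma difference of untreated CTCFdegron from parental cells was 0.39 and did not pass. With the replicate block, a sign-flip test on same-numbered pairs, the CTCFdegron differences of 4.34 points (all junctions) and 9.08 points (D junctions) had p = 0.03125 and adjusted p = 0.0781; the block changed no other call on Ighd4-1. Permuting IAA labels within lines gave 1.97 for Rad21degron against parental cells (adjusted p = 0.0625). Requiring all 11 bases in VH gaps gave -0.0474 (bone marrow minus parental) and 0.243 (CTCFdegron with IAA minus bone marrow). Counting identical junctions once brought 6 differences in the share of D junctions past the threshold: 36.7 (IGCR1deleted, IAA), 13.4 (IGCR1deleted minus Rad21degron), 7.93 (Rad21degron minus parental), 2.17 (CTCFdegron minus parental), -0.808 (tag-only minus parental) and -1.59 (bone marrow minus parental). Those of 13.4, 7.93 and 2.17 were smaller than with every junction counted. For 36.7, 13.4 and 7.93 the unadjusted p was already the smallest possible. Their adjusted p therefore fell only because p-values of other comparisons in the adjustment fell. D junctions as the denominator gave -1.03 for the difference in IAA effect between the Rad21degron lines.

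Within single runs, values moved by more than the replicate spread for the share (36.0 in run 8, 37.7 in run 5), the share of D junctions (63.0 in run 2, 43.7 in run 8), the minus fraction (1.22 in run 2, 0.342 in run 5), untrimmed ends (-0.636, run 2), joins without added bases (8.71, run 5) and VH gaps (0.212, run 5); the last 3 were chosen after seeing the data. Leaving out 1 replicate ended calls of 5 results, where fewer arrangements raise the smallest p, and brought 1 result past the threshold. The ranges of the former were 1.87 to 2.05 (IAA effect, Rad21degron minus parental), -1.16 to -0.878 (VH gaps), -30.1 to -19.4 (no added bases), -12.02 to -10.5 (untrimmed ends, these 3 bone marrow minus parental) and 11.1 to 12.05 (share of D junctions, CTCFdegron minus parental with IAA). The range of the latter was -4.19 to -3.09 (untrimmed ends, CTCFdegron minus parental with IAA).

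Counts of called segments moved by over 1.5 times without the filter on junctions (Rad21degron 12 to 95, IGCR1deleted 9 to 39, CTCFdegron 62 to 135, IGCR1deleted minus Rad21degron 17 to 28, CTCFdegron minus parental 21 to 79, Ostir1-only 1 to 0). With median-of-ratios scaling they were 4 for Rad21degron, 11 for IGCR1deleted minus Rad21degron and 5 for parental. With identical junctions counted once they were 1 for parental, 0 for Ostir1-only and 11 for tag-only minus parental, which had 26 and gave 17 without voom weights and 13 with a pseudocount of 1. Without an untreated Rad21degron replicate the 12 calls became 6 or 7, without parental replicates 3 or 4 the 26 became 12 or 9, and the 1 call of the Ostir1-only line varied from 0 to 2. The limma test at an unadjusted p under 0.05 passed 5 segments in the Ostir1-only, 4 in the tag-only and 1 in the Ostir1-only against parental comparison, against 1, 0 and 0 after adjustment. Treated Rad21degron replicates had 1263 to 2492 junctions, which limits the precision of their values.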
